A study of Drosophila melanogaster with 4 samples.

Results

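The Hsp90 peaks described here lie in the centromere-near 2 Mb of the 5 large chromosome arms of Drosophila melanogaster and on chromosome 4. They were chosen by position alone in the dm3 build: every peak on chromosome 4, and every peak inside the last 2 Mb of X, 2L and 3L or the first 2 Mb of 2R and 3R. The rule gave 1151 of 24151 peaks in all, with 503 of 11299 in replicate 1 and 648 of 12852 in replicate 2. The peaks come from chromatin immunoprecipitation followed by sequencing (ChIP-seq) in DRSC-S2 cells, a cultured fly line grown at 25°C, for which the labels name no treatment. Both ChIP replicates, which the submitters call biological, were made with a non-commercial antibody against Drosophila Hsp90, and each was compared by the authors with its own input, chromatin sequenced without an antibody. There is 1 condition and 1 line, so nothing was compared between treatments or genotypes. Replicate 1 rested on 13383895 unique ChIP tags and replicate 2 on 17401846, a ratio of 1.30.

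Hsp90 is an ATP-dependent chaperone that keeps kinases, receptors and chromatin regulators in an active fold, and the title of the series places it at paused promoters. The sequence next to fly centromeres is poor in genes and rich in transposon remains and other repeats, and much of it is packed as heterochromatin with the protein HP1. Chromosome 4 is very small and carries HP1 along most of its length, yet its genes are transcribed. Arms in the dm3 build end before the centromere itself, so "centromere-near" means the end of the assembled arm and not the centromere. No gene model of this build was used, so peaks go by their position alone, without gene names.

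Hsp90 peaks were unevenly spread over the centromere-near sequence. In replicate 1 the 2 Mb zones held 62 peaks on X, 119 on 2L, 40 on 2R, 33 on 3L and 186 on 3R. In replicate 2 they held 94 peaks on X, 115 on 2L, 61 on 2R, 54 on 3L and 199 on 3R. The order of 3R, 2L, X, 2R and 3L was the same in both lists, with 3R far above 3L. Chromosome 4 carried 63 peaks in replicate 1 and 125 in replicate 2. A peak was matched when it overlapped a peak of the other list by 1 bp or more. Of the centromere-near peaks of replicate 1, 407 of 440 were matched (92.5%, exact 95% binomial interval 89.6 to 94.8%), against 88.4% of that whole list. Of those of replicate 2, 381 of 523 were matched (72.8%, 68.8 to 76.6%), against 76.3% of that whole list. The lists therefore differed mainly through peaks that replicate 2 alone held. These intervals cover counting error only and count neighbouring peaks as independent.

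**Figure D1:**
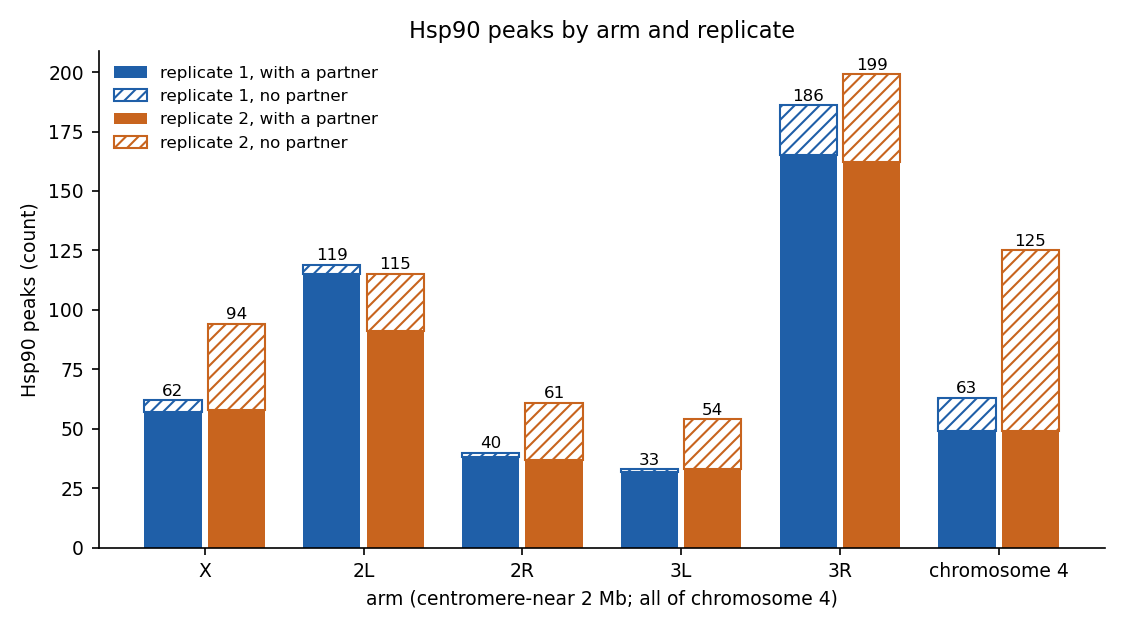
Number of Hsp90 peaks (vertical axis, count) in the centromere-near 2 Mb of each large arm and on chromosome 4, by replicate; solid bars are peaks that overlap a peak of the other replicate, hatched bars those that do not. On chromosome 4 replicate 2 had 76 peaks without a partner and 49 with one, and on 3R it had 37 and 162.

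Set against the rest of the same arm, the zones were sparser on 4 of the 5 arms. In replicate 1 the density was 16.5 peaks per Mb near the centromere of 3L against 96.0 over the rest of that arm, 20 against 109.8 on 2R, 31 against 78.6 on X and 59.5 against 95.7 on 2L. In replicate 2 it was 27 against 100.8 on 3L, 30.5 against 110.2 on 2R, 47 against 89.8 on X and 57.5 against 97.4 on 2L. On 3R the zone was as dense as the arm, at 93 against 91.8 peaks per Mb in replicate 1 and 99.5 against 93.1 in replicate 2. Over the 5 arms the zone had 44 ± 32.2 peaks per Mb and the rest 94.4 ± 11.1 in replicate 1 (SD, n = 5 arms; exact two-sided sign-flip permutation test, p = 0.125, adjusted p = 0.20). In replicate 2 the means were 52.3 ± 29.1 and 98.3 ± 7.89 (SD, n = 5 arms; exact permutation p = 0.125, adjusted p = 0.20). With 5 arms the smallest p that this test allows is 0.063, so no difference between zones and arms can pass 0.05. The p-values were adjusted by Benjamini-Hochberg over 8 tests, which are those of 4 measures in each replicate.

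Peaks of the 2 Mb zones had median folds about as high as elsewhere in replicate 1, and had lower medians on every large arm in replicate 2. The median of the authors' fold enrichment over input was 5.13 on X, 4.94 on 2L, 4.43 on 2R, 4.87 on 3L and 4.59 on 3R in replicate 1. The corresponding medians over the rest of these arms ran from 4.70 to 4.97. In replicate 2 the zone medians were 4.84 on X, 4.35 on 2L, 4.12 on 2R, 4.21 on 3L and 4.73 on 3R, and those of the rest ran from 4.85 to 4.99. The zone was lower on 2 of 5 arms in replicate 1, with a mean difference of -0.015 that lay inside the spread between arms (exact permutation p = 0.9375, n = 5 arms). In a zone of 1 Mb that mean difference was -0.959 (exact permutation p = 0.125, n = 5 arms). Without the periodic 2L stretch described below it was -0.177 (exact permutation p = 0.375, n = 5 arms). The 2L zone median was then 4.13, below the 4.70 of the rest of 2L. In replicate 2 the zone was lower on 5 of 5 arms, with mean medians of 4.45 ± 0.32 and 4.94 ± 0.059 (SD, n = 5 arms, exact permutation p = 0.063, the smallest possible, adjusted p = 0.20). The share of matched peaks went opposite ways in the replicates. It was higher near the centromere on 4 of 5 arms in replicate 1 (means 93.9% and 88.5%, exact permutation p = 0.125, n = 5 arms). It was lower on 5 of 5 arms in replicate 2 (means 68.8% and 83.4%, exact permutation p = 0.063, n = 5 arms). Both had an adjusted p of 0.20 by the same permutation test.

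**Figure D2:**
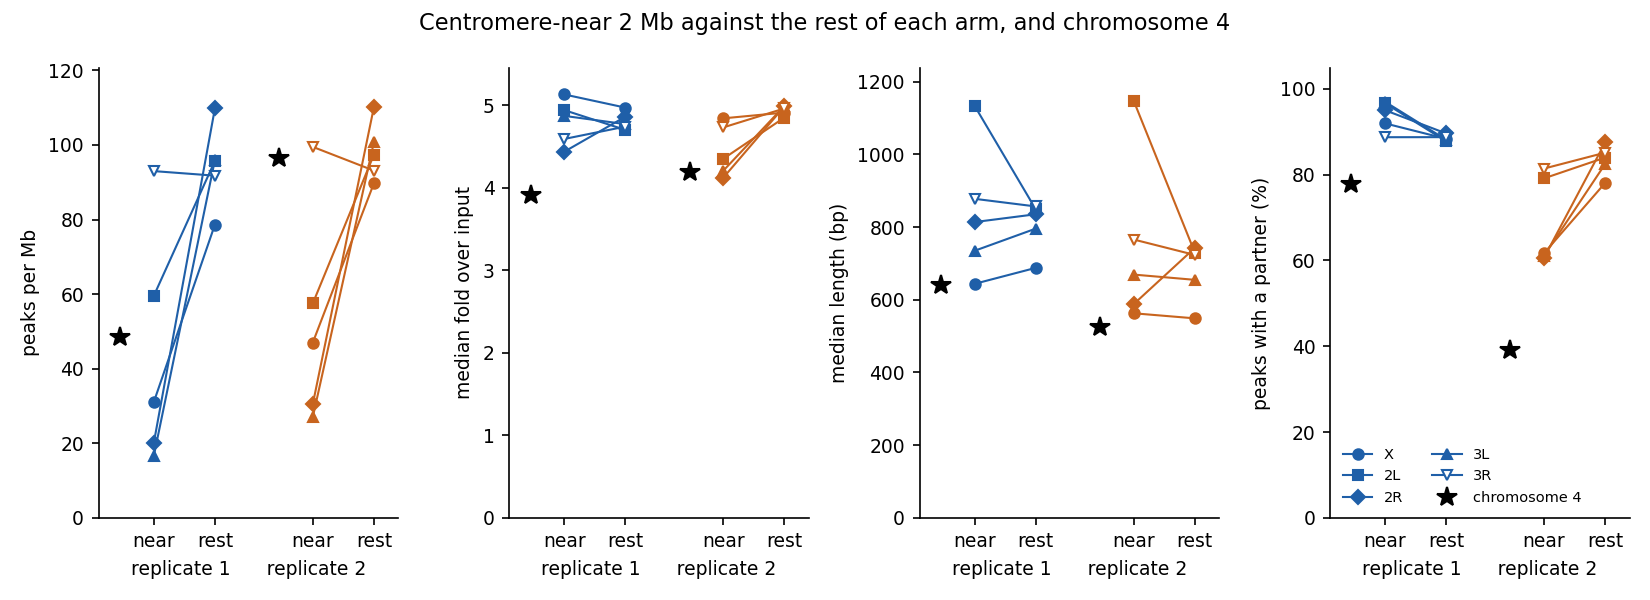
Peaks per Mb, median fold over input, median length in bp and share of peaks with a partner in the other replicate, for the centromere-near 2 Mb (near) and the rest of each large arm, each line joining the values of 1 arm in 1 replicate; black stars are chromosome 4. The 3R line is flat in density, at 93 against 91.8 peaks per Mb in replicate 1, while the other 4 arms climb.

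The 4 sparse arms thinned out toward their ends, and 3R did not. Between 1 and 2 Mb from the end, the outer 1 Mb of the zones, X, 2L, 2R and 3L together held 233 peaks in replicate 1 and 249 in replicate 2. By arm these were 52, 114, 38 and 29 in replicate 1, and 60, 98, 52 and 39 in replicate 2. Of those on 2L, 58 and 38 lay in the periodic stretch described below. In the innermost 1 Mb these arms held 21 peaks in replicate 1, of which 10 were on X, 5 on 2L, 2 on 2R and 4 on 3L. Replicate 2 listed 75 peaks there, 34 on X, 17 on 2L, 9 on 2R and 15 on 3L. On 3R the innermost 1 Mb held 87 and 95 peaks, against 99 and 104 in the outer 1 Mb.

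The innermost 1 Mb was also where the lists parted. Of the 75 peaks of replicate 2 on X, 2L, 2R and 3L, 54 had no partner (72%, exact 95% interval 60.4 to 81.8%), where 23.7% of the whole list had none. In the outer 1 Mb of the same arms 51 of 249 had none (20.5%, 15.6 to 26.0%). On 3R it was 17 of 95 in the innermost 1 Mb and 20 of 104 in the outer 1 Mb. Replicate 1 had 1 unmatched peak among the 21 of the innermost 1 Mb, where 11.6% of its whole list were unmatched. Folds were lower there on the 4 arms in both lists, with a median of 3.34 in the innermost 1 Mb against 5.07 in the outer 1 Mb in replicate 1, and 3.63 against 4.59 in replicate 2. The outer values include the periodic 2L stretch, whose 58 and 38 peaks had median folds of 5.63 and 4.22, with 0 and 1 unmatched. On 3R the medians were 4.97 and 4.51 in replicate 1 and 4.85 and 4.71 in replicate 2. The contrast between 3R and the other arms was not tested, since it rests on a single arm picked after its values were seen.

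**Figure D3:**
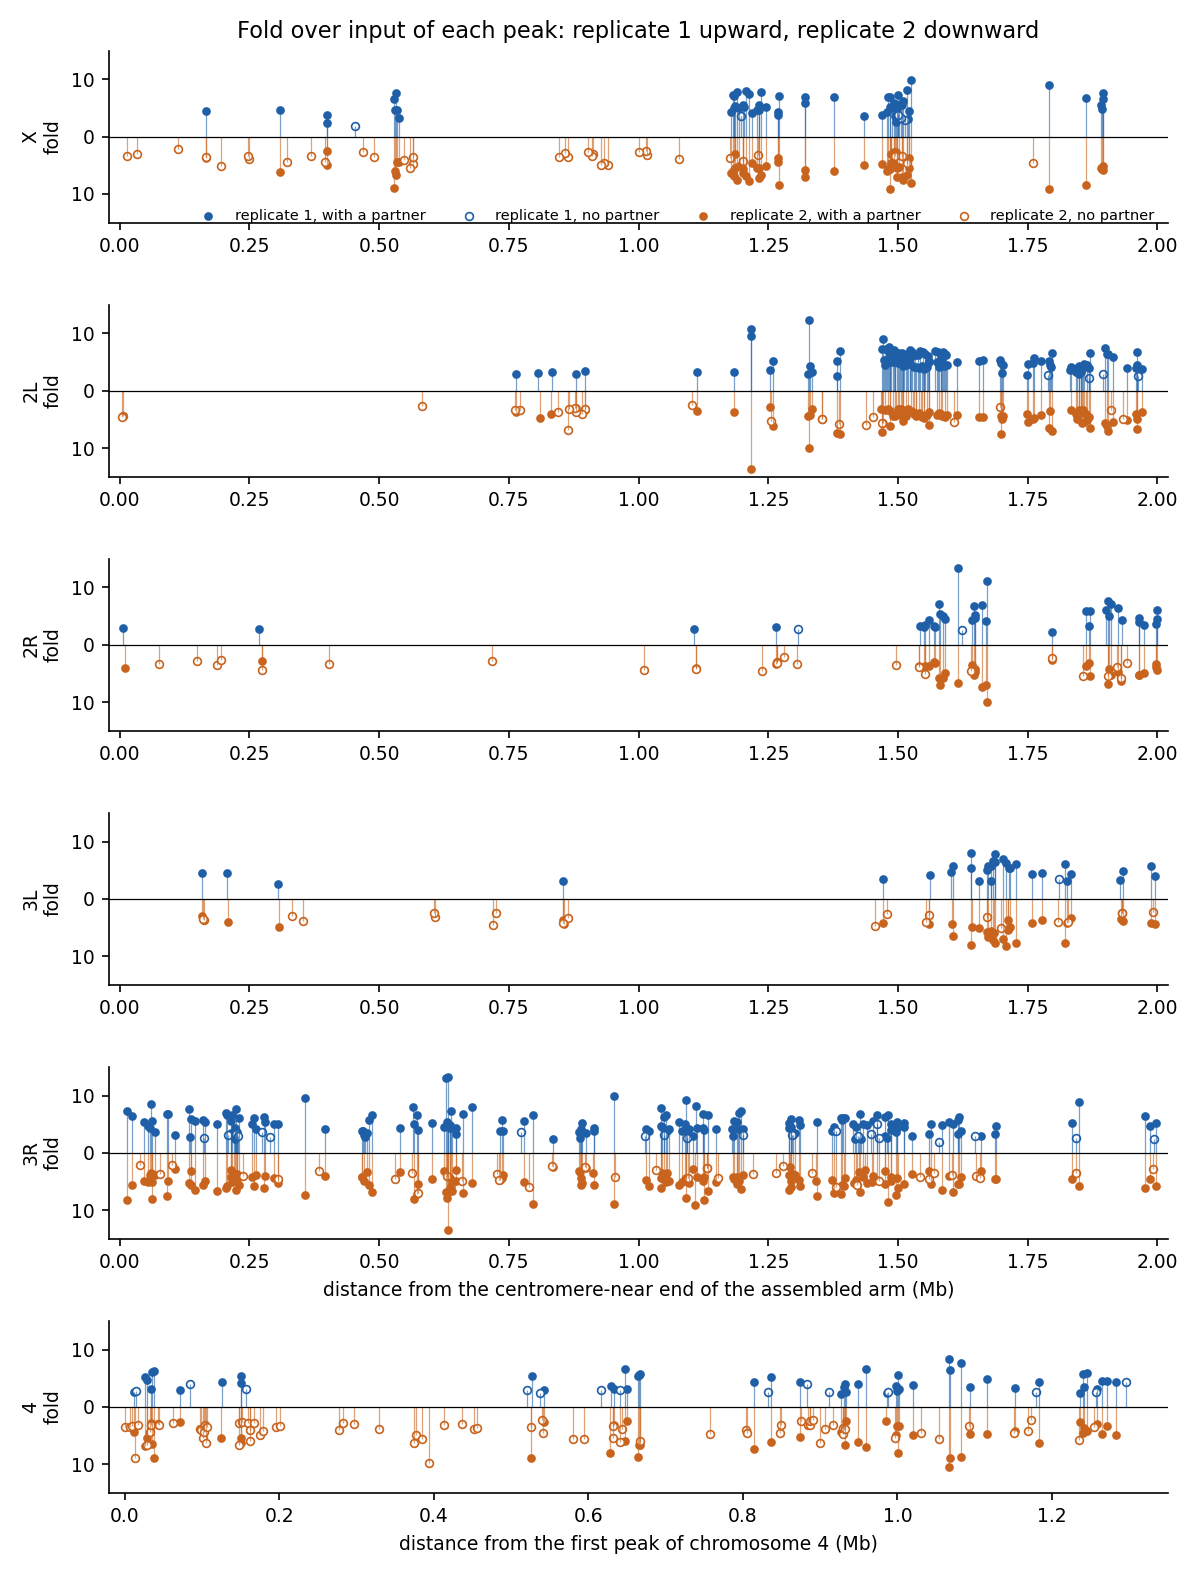
Fold over input of every peak (vertical axis, replicate 1 upward and replicate 2 downward) against distance in Mb from the centromere-near end of each large arm, and for chromosome 4 from its first peak; filled points have a partner in the other replicate and open points have none. The innermost 1 Mb of X, 2L, 2R and 3L holds 21 peaks of replicate 1 and 75 of replicate 2, and on 3R filled points of both replicates run along the whole 2 Mb.

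Long stretches held no peak. In replicate 1 the longest were 837 kb on 2R from 268232 to 1105614, 638 kb on X from 21245580 to 21883571, 616 kb on 3L from 23072786 to 23688539 and 215 kb on 2L from 21899954 to 22114695. In replicate 2 the longest were 591 kb on 3L from 23088742 to 23679282, 575 kb on 2L from 22429875 to 23004580, 312 kb on 2R from 404225 to 716530 and 282 kb on X from 21575726 to 21857427. The 3R stretch of 145 kb from 1688446 to 1832998 in replicate 1 recurred at nearly the same limits in replicate 2. Replicate 2 also had rows of 5 or more consecutive unmatched peaks. The longest, on X, lay inside the stretch that was empty in replicate 1 and on both sides of the 282 kb without a peak in replicate 2, with 18 peaks over 629 kb and folds of 2.58 to 5.47. The row on 3L had 7 peaks over 522 kb (folds 2.50 to 4.61), that on 2R 6 peaks over 274 kb (2.22 to 3.83) and that on 2L 5 peaks over 37.5 kb (2.99 to 6.90). Replicate 1 listed no peak inside the X, 2L and 3L rows and 1 peak inside the 2R row. Replicate 1 had no such row of its own.

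Many of the 2L peaks lay in a periodic stretch of 127 kb from 21416804 to 21543828, picked after the peaks were seen. It held 58 peaks of replicate 1, which is 48.7% of the centromere-near peaks of 2L, and 38 of replicate 2, which is 33.0%. All 58 peaks of replicate 1 were matched (exact 95% interval 93.8 to 100%), as were 37 of the 38 of replicate 2 (97.4%, 86.2 to 99.9%). The peaks covered 65.6% of the stretch in replicate 1 and 71.9% in replicate 2. They held 0.245% and 0.241% of the unique ChIP tags of the libraries, or 22.5% and 15.6% of all tags in centromere-near peaks.

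Summits in this stretch recurred every 5.05 kb. The commonest distance between summits was 5055 bp in replicate 1, where 31 pairs within 100 bp of it had a mean of 5052 ± 33.0 bp (SD). In replicate 2 it was 5040 bp, and 18 pairs had a mean of 5041 ± 40.7 bp (SD). Of the 58 summits of replicate 1, 39 had another summit at that distance (67.2%). In replicate 2 it was 27 of 38 (71.1%). The distance was taken from these same summits, so the shares are a description. The replicates cut the same pattern differently. Replicate 1 had many peaks of about 1 kb with a median length of 1174 bp and folds of 3.80 to 9.0, median 5.63. Replicate 2 merged neighbours into peaks with a median length of 3011 bp and folds of 3.12 to 7.22, median 4.22. The pattern was interrupted once in both lists, where neighbouring summits lay 11094 bp apart in replicate 1 and 10913 bp apart in replicate 2. The replication-dependent histone genes of the fly are known to stand in a tandem array on 2L close to the centromere; whether these peaks lie on that array was not looked up, since no annotation of the build was used. The treatment of reads that match several repeats is not given in the sources used here. Whether single peaks of this stretch share reads was not tested.

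**Figure D4:**
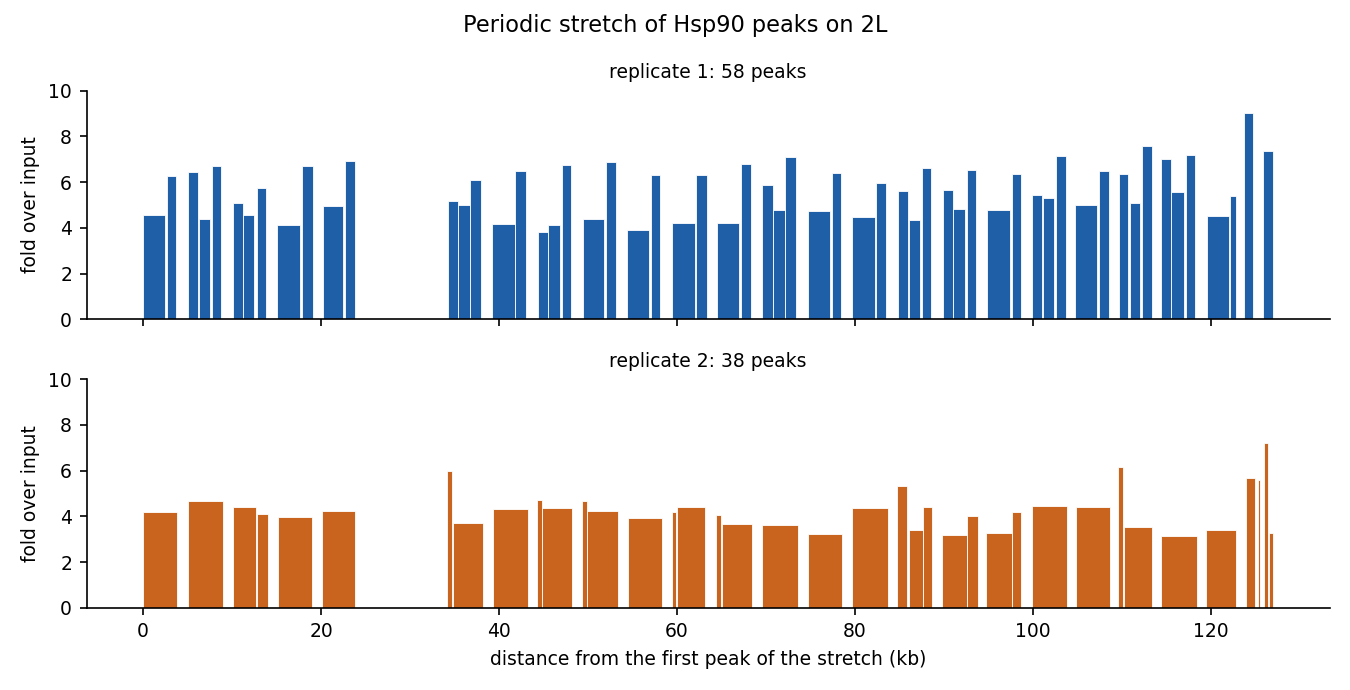
Fold over input (vertical axis) of each Hsp90 peak in the periodic 2L stretch against distance in kb from its first peak, bar width being the peak's length, for replicate 1 (58 peaks) and replicate 2 (38 peaks). Groups of bars recur about every 5.05 kb on either side of an empty gap.

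Without this stretch the density of the 2L zone came close to that of X. The zone then held 61 peaks in replicate 1 and 77 in replicate 2, or 32.6 and 41.1 per Mb, and its median fold was 4.13 and 4.49. The median peak length of the 2L zone was 1134 bp in replicate 1 and 1148 bp in replicate 2, the highest of the 5 zones, against 849 and 730 bp over the rest of 2L. Without the stretch it was 1050 and 1003 bp, still the highest of the 5. Over the 5 arms the zone medians were 841 ± 186 bp against 805.1 ± 69.5 bp in replicate 1 (SD, n = 5 arms; exact permutation p = 0.9375). In replicate 2 they were 746.9 ± 238 bp against 680.1 ± 80.9 bp (SD, n = 5 arms; exact permutation p = 0.5625). Zone and rest were compared in length within a list, because the fragment size estimated by the caller was 111 bp in replicate 1 and 78 bp in replicate 2.

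The strongest matched sites of the zones, 3 for each arm by the mean percentile of the caller's score in both lists, lay on 3R or in the outer 1 Mb, apart from 1 on X. On 2R the leading site, chr2R:1669588-1670755, was enriched 11.15-fold in replicate 1 and 9.99-fold in replicate 2, with summits 29 bp apart. Next were chr2R:1900471-1904157, at 6.15 and 6.83 with summits 1854 bp apart, and chr2R:1578790-1579806, at 7.20 and 5.75 with summits 27 bp apart. The folds of the leading 2R sites were thus alike in both lists.

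On 3L the leading site was the 3101 bp region chr3L:22815394-22818494, whose fold was 6.09 in replicate 1 and 7.71 in replicate 2. This site had summits 2198 bp apart between the lists. It was followed by chr3L:22901928-22903113, at 5.33 and 4.86, and chr3L:22937944-22939195, at 5.75 and 6.43. The leading site of 3R departed from this likeness. At chr3R:628799-629668 the fold was 13.11 in replicate 1 and 6.80 in replicate 2, the largest fold ratio of that zone. Its tags were 664 and 710, not scaled for the larger library of replicate 2 (ratio of unique tags 1.30). Its followers, chr3R:1424417-1428343 at 6.84 and 6.86 and chr3R:564451-566765 at 8.00 and 8.09, had nearly equal folds.

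On 2L the sites were chr2L:21250299-21251396 at 5.66 and 4.68, chr2L:21682491-21684358 at 12.41 and 9.96, and chr2L:21628369-21630240 at 5.16 and 7.39. Replicate 1 was thus the higher at the first pair and replicate 2 at the last. On X they were chrX:20631258-20631929 at 9.04 and 9.18, chrX:21151627-21152654 at 7.17 and 8.47, and chrX:21889666-21890349 at 7.66 and 6.60. The last of these stood in the innermost 1 Mb.

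Most matched sites with a single peak in each list had nearly the same summits, and their folds were similar. The members formed 403 matched regions, 354 near the centromeres and 49 on chromosome 4, and 346 of them (85.9%) had a single peak in each replicate. In the 297 such regions near the centromeres the median distance between summits was 24 bp (quartiles 10 and 51 bp), against 22 bp (10 and 48 bp) over the rest of the large arms. Summits lay within 100 bp of each other in 248 of the 297 (83.5%), against 84.9% over the rest. The folds of the 297 regions correlated across regions with a Pearson r of 0.74 and a Spearman rho of 0.73, and their scores with 0.64 and 0.68. Over the 6979 regions of the rest the values were 0.82 and 0.79 for folds and 0.85 and 0.79 for scores. Regions share both libraries and are not replicates, so these are descriptions. Dividing the fold of replicate 2 by that of replicate 1 gave a median log2 ratio of 0.02 near the centromeres (SD 0.32, n = 297 regions). Some regions departed from it: at chr2R:1614161-1614832 the fold was 13.38 in replicate 1 and 6.76 in replicate 2, at chrX:20902502-20903167 it was 3.10 and 5.53, and at chr2L:21531167-21535226, inside the periodic stretch, it was 7.20 for the best of 3 peaks and 3.12 for the single wide peak.

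Wide peaks were commoner near the centromeres than in the whole list in replicate 2, and rarer in replicate 1, a difference that was not tested. Peaks of 3 kb or more made up 46 of 523 near the centromeres in replicate 2 (8.80%), against 3.0% of the whole list, and 5 of 440 in replicate 1 (1.14%), against 2.35%. The periodic 2L stretch held 19 of the 46. Outside the stretch, 16 of 27 such peaks of replicate 2 had no partner (59.3%), against 38 of 310 over the rest of the large arms (12.3%). Those 38 had folds from 1.99 to 5.63 with a median of 2.6, and 1206 to 4269 tags. The 16 near the centromeres were much like them, with folds from 2.08 to 4.66, a median of 2.63, and 1196 to 5290 tags. The widest was a 9429 bp peak at chrX:21565320-21574748 where 5290 tags gave a fold of 2.90 and a score of 1339, and the nearest peak of replicate 1 was 308824 bp away. The highest-scoring unmatched peaks of replicate 2 on the other large arms were also 3 kb or more: at chr2L:23006329-23009404 (fold 4.66), at chr2R:1789624-1796132 (fold 2.28), at chr3L:22983677-22988311 (fold 2.79) and at chr3R:234661-238567 (fold 3.97). The nearest peak of replicate 1 was 758536 bp away from the 2L peak, but 256 bp from the 2R peak, 166 bp from the 3L peak and 3676 bp from the 3R peak. In replicate 1 the highest-scoring unmatched peaks had scores of 73.0 on X, 83.1 on 2L, 77.0 on 2R and 52.5 on 3L, all below the median of 190.8 of that list, and 223.3 on 3R.

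The 5 longest matched regions showed the same split within a site. At chr2R:266898-273589 the peak of replicate 1 was 1334 bp long and held 689 tags (fold 2.75), and that of replicate 2 was 6671 bp long and held 3720 tags (fold 2.85). The other 4 lay at chr2L:22201361-22206709, chr2R:4512-9674, chr2R:1105202-1110020 and chr3L:24235641-24240802. Each of these 4 had 559 to 616 tags in a peak of 1430 to 1563 bp in replicate 1, and 2303 to 2540 tags in a peak of 4819 to 5349 bp in replicate 2. Their folds were 2.55 to 3.12 in replicate 1 and 4.10 to 4.93 in replicate 2. Peaks on 3 different arms thus had closely similar lengths and tags within each list. Lengths within 10% of theirs in both lists were found in 24 of the 8557 matched regions of the 6 arms (0.280%). These lengths were set from the 4 themselves, which are among the 24. Their 4 of 403 member regions therefore cannot be weighed against that share. The 4 were picked by their values, and whether they share a sequence was not tested.

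Among the 5 zones and chromosome 4, the number of peaks differed most between the replicates on chromosome 4. Over the 1.30 Mb from its first to its last peak the density was 48.6 peaks per Mb in replicate 1 and 96.4 in replicate 2, so that replicate 2 alone put it in the range of the large arms. Of the 63 peaks of replicate 1, 49 were matched (77.8%, exact 95% interval 65.5 to 87.3%), against 88.4% of that whole list. Of the 125 of replicate 2, 49 were matched (39.2%, 30.6 to 48.3%), against 76.3% of that whole list. Peaks were short and moderately enriched, with a median length of 641 bp and a median fold of 3.91 in replicate 1, and 524 bp and 4.19 in replicate 2. Both medians of length were below those of the 5 zones in their list, as was the median fold of replicate 1. None reached 3 kb, the longest being 2595 and 2549 bp. A false discovery rate under 5% was listed for 2 of 63 peaks in replicate 1, against 7.81% of that list, and for 55 of 125 (44%) in replicate 2, against 53.5%.

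The 76 peaks that replicate 2 added were unevenly spread over chromosome 4. Windows of 250 kb from its first base held 28, 11, 12, 16, 7 and 2 of them. The last window began at 1250001 and the last peak ended at 1347629, so its counts come from a shorter span than the others. Replicate 1 held 13, 0, 13, 10, 17 and 10 peaks in the same windows. Replicate 2 held 38, 11, 21, 23, 22 and 10 in all. The last window had the same number in both lists, while the second had none in replicate 1, whose longest stretch without a peak ran 363 kb from 208278 to 571442. The 76 unmatched peaks of replicate 2 had a median fold of 3.83 (2.30 to 9.72) and a median score of 105.8, against 4.99 and 359.4 for its matched peaks there. Of these 76, 18 scored at or above the median of the whole list, and 11 had a peak of replicate 1 within 500 bp. Over the rest of the large arms it was 152 and 550 of 1746 unmatched peaks of replicate 2. The highest-scoring of the 76, from 156010 to 157263, had 452 tags and a fold of 6.33, and lay 19270 bp from any peak of replicate 1. Some of the unmatched peaks formed rows of 7, 22 and 8. The longest row ran 374 kb from 203067 to 577412 with folds of 2.67 to 9.72, crossed the stretch that replicate 1 left empty and had 2 peaks of replicate 1 within its limits, as had the row of 8. The 14 unmatched peaks of replicate 1 were weaker, with a median fold of 2.83 and a highest score of 116.4.

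Matched sites on chromosome 4 were more enriched in replicate 2. All 49 had a single peak in each list, and the fold was higher in replicate 2 in 38 of them (77.6%), against 51.5% of the 7325 such regions on all 6 arms. The median log2 ratio of the folds was 0.23 (SD 0.36, n = 49 regions). Near the centromeres the median ran from 0.01 on 3R to 0.06 on X, and elsewhere on the large arms it ran from -0.01 to 0.03. With 1 chromosome and 2 libraries this difference was not tested. The input of replicate 2 was deeper too, at 15814871 unique tags against 10514709, and the part of depth in the difference was not tested. The folds correlated across the 49 regions with a Pearson r of 0.78 and a Spearman rho of 0.77. Summits there lay a median of 33 bp apart (quartiles 12 and 185 bp), and within 100 bp in 35 of the 49 (71.4%).

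The named sites of chromosome 4 were picked by score, or by fold ratio, from these same values. The region chr4:86519-88161 had folds of 6.15 in replicate 1 and 6.47 in replicate 2. Next to it, the region chr4:88741-91336 had folds of 6.34 and 8.99. At chr4:577440-579613 they were 5.45 and 8.94, with 619 and 1347 tags and summits 755 bp apart. The largest ratio was at chr4:679660-681529, where the fold was 3.73 with 268 tags in replicate 1 and 8.02 with 813 tags in replicate 2, at summits 31 bp apart. In each of the 4 the fold was higher in replicate 2, but the last was named for its ratio. Of the 49 matched regions, 11 had the higher fold in replicate 1.

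**Figure D5:**
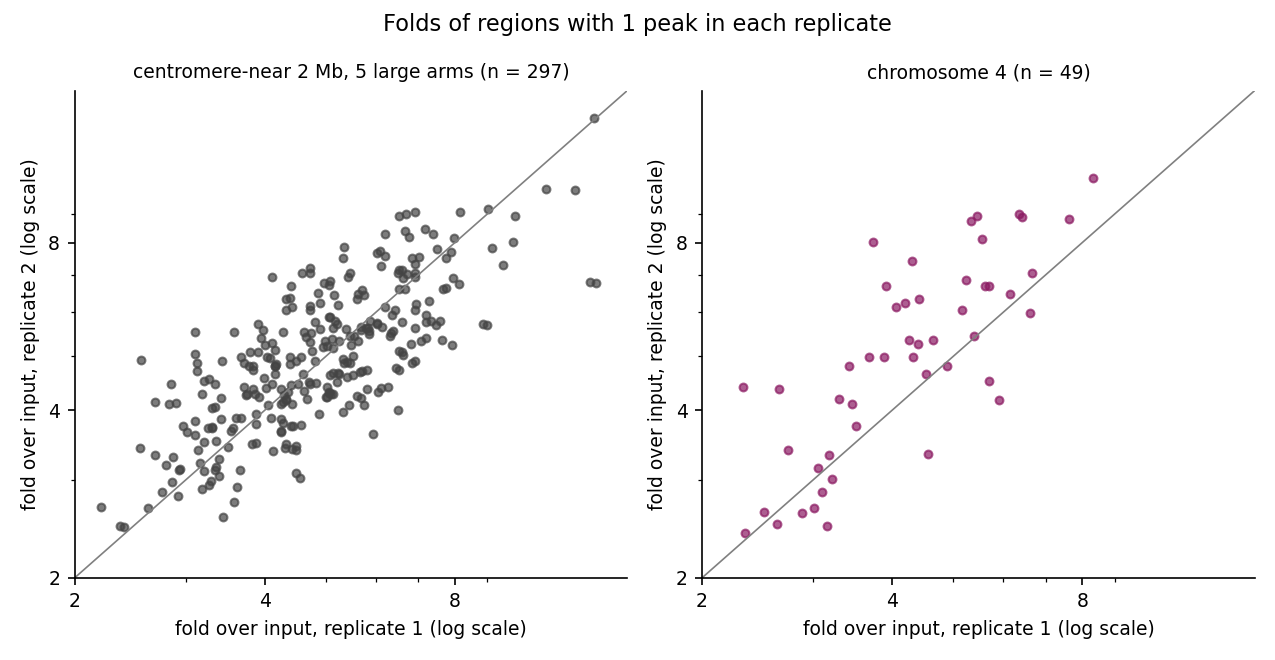
Fold over input in replicate 2 against replicate 1 (both on log scales) for regions with 1 peak in each list, near the centromeres (297 regions) and on chromosome 4 (49 regions); the line marks equal folds. On chromosome 4, 38 of 49 points lie above the line.

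Of the peaks nearest the limit of the zones, the fold was higher inside it on some arms and outside it on others. Inside the limit the folds of the first peak on X, 2L, 2R, 3L and 3R were 6.60, 3.87, 6.11, 4.02 and 5.16 in replicate 1 and 5.08, 3.78, 4.39, 4.39 and 5.78 in replicate 2. Outside they were 4.07, 4.41, 2.93, 6.43 and 3.99 in replicate 1 and 6.15, 3.58, 4.27, 4.52 and 4.10 in replicate 2. Some of these peaks lay far from the limit. On 3L, where it was at 22543557, the nearest outside ended at 22260999 in replicate 1 and 22282126 in replicate 2. All those inside had a partner. Those outside had none on 2R in replicate 1 and on X and 3L in replicate 2.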

How the data were processed

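Hsp90 ChIP-seq peaks of 2 replicates of DRSC-S2 cells were analysed. The submitters' processing notes name Bowtie and the builds dm3 and BDGP5, and the file headers name MACS; versions and the treatment of reads with several matches were not given there. Per the file headers, the authors called each list separately with its matching input as control and a cutoff of 1e-05 on the p-value. The model fold was 6 in replicate 1 and 4 in replicate 2, and the estimated fragment size (d) 111 and 78. The authors' tag count per peak is unnormalized. The deposited score is a scaled negative log10 of the p-value and the fold a ratio of ChIP over background. False discovery rates were deposited in percent. Scores were ranked within each list, and folds, lengths and tags were set side by side between lists as a description only. The inputs entered only through these values. Positions are 1-based.

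Zones were cut by position, peaks were matched by an overlap of at least 1 bp, and overlapping peaks of both lists were merged into regions that took the fold of the best-scoring peak. Densities of the rest of an arm, and of chromosome 4, used the distance between the outermost peaks of the combined lists. Zones were compared with the rest of each arm by flipping the signs of the 5 differences in an exact two-sided permutation test. Other values are descriptions with exact binomial intervals. The overlap function was checked on copies of replicate 1 peaks shifted by less than their length, and recovered the kept ones among isolated peaks. That check did not cover merged, split or crowded peaks. The software was scipy 1.17.1, pandas 2.3.3 and numpy 2.4.6 under Python 3.11.15, with matplotlib 3.10.9 for plots.

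Per arm, the named sites were the 3 matched regions with the highest mean score percentile, the matched region with the largest fold ratio and the best-scoring unmatched peak of each list, and over all members the 5 longest matched regions. The members and lists were chosen with earlier results of these data known. Alternatives were another overlap, score and false discovery thresholds, a zone of 1 Mb, and leaving out arms, replicates or the periodic 2L stretch.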

Additional observations from a re-analysis of the deposited data

How the results depend on the processing

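No paired analysis was possible because the inputs, which share replicate numbers with the ChIP samples, enter only through the authors' folds and scores. Left to 1 replicate, the zones had 44 to 52.3 peaks per Mb (48.1 as the mean of both), a median fold of 4.48 to 4.81 and a median length of 737 to 916.5 bp, and chromosome 4 had 63 to 125 peaks with a median fold of 3.91 to 4.19. Matched shares need both replicates and have no such value. When peaks scoring below the median of their list were dropped, the mean density was 27.6 peaks per Mb, the fold 5.42 and the length 1079 bp, and chromosome 4 held 33 peaks with a fold of 6.02. The matched shares were then 99.2% and 89.6% in the zones and 100% and 65.4% on chromosome 4, for replicates 1 and 2. With a false discovery rate under 5% the mean density was 16.6, the fold 6.08 and the length 1165 bp. Chromosome 4 then held a mean of 28.5 peaks with a fold of 6.17. These are means of unlike lists, since 23 of 440 zone peaks passed in replicate 1 and 308 of 523 in replicate 2. On chromosome 4, 2 of 63 passed in replicate 1 and 55 of 125 in replicate 2. In a zone of 1 Mb the density was 27.8, the fold 4.34 and the matched share of replicate 2 58.2%. Without 3R the density was 36.1, the matched shares were 95.3% and 67.6%, and the difference in median fold of replicate 1, -0.015 with 5 arms, became 0.0187; it was -0.959 in a zone of 1 Mb and -0.177 without the periodic 2L stretch. An overlap of at least 50% of both peaks gave matched shares of 73.6% and 62.0% in the zones, and a peak within 500 bp gave 95.7% and 79.0%. Leaving out X or the periodic 2L stretch moved no value of the zones beyond the spread between replicates or the binomial interval. The settings without the stretch, and the arm tests in the 1 Mb zone or without 3R, were added after the data were seen. The cause of these changes was not tested.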

Other observations

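The 4 long regions with closely similar values were looked for over the whole of the arms, by lengths within 10% of theirs in both lists and a single peak in each. This found 24 of 8557 matched regions (0.280%), namely the 4 near the centromeres and 20 elsewhere on the large arms. Tags were not used to find them. All 24 had 543 to 625 tags in replicate 1 and 2303 to 2583 in replicate 2. The 24 had folds of 2.47 to 3.22 in replicate 1 and 2.81 to 5.35 in replicate 2. The search was chosen after the values were seen, and whether the regions share a sequence was not tested.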
